A study of Mus musculus with 6 samples.

Results

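The smooth muscle contractile genes examined here are 10 genes, Acta2, Actg2, Tagln, Myh11, Cnn1, Myocd, Des, Lmod1, Mylk and Smtn. They were taken by symbol, with every probe set of the array whose annotation names only one of them. All 10 were on the array with 17 probe sets, out of 18193 genes and 45037 probe sets in all; 5 genes had several probe sets and 5 had 1. Expression was measured on Affymetrix arrays in Hox6 null pancreata (3 arrays) and in wild type control pancreata (3 arrays), all from Bl6 mouse embryos at stage E12.5. Hox6 is the name for a paralog group of Hox transcription factors whose members are Hoxa6, Hoxb6 and Hoxc6. The labels do not list the alleles, the parts of the genes that were disrupted, the sex of the embryos or how many embryos each sample held. The pancreata were dissected, flash frozen and amplified from 10 ng of total RNA per sample, and p-values measure the spread between samples that the labels call biological replicates.

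Smooth muscle contracts when myosin pulls on actin filaments that are anchored in a scaffold of intermediate filaments. Contraction starts when calcium and calmodulin activate myosin light chain kinase, which phosphorylates the light chains of myosin. The genes for this machinery are switched on by serum response factor (Srf), which binds a short DNA element called the CArG box, and by its coactivator myocardin. In the embryonic pancreas such cells lie in vessel walls and in mesenchyme, and the neighbouring stomach and duodenum have muscle layers of their own. Acta2 is also expressed by pericytes and by activated mesenchymal cells. In whole organs, fewer cells of a type and less RNA per cell cannot be told apart.

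The upstream sequence of Acta2 is shown because Acta2 had the largest difference of the 17 probe sets and because CArG boxes next to its start site are a textbook case of control by Srf. The sequence covers the 250 bases before the start of transcription and comes from RefSeq (mouse build GRCm38.p6, chr19:34255374-34255623, minus strand). Capitals mark matches to the CArG box with 1 letter of the 6-letter core being C or G instead of A or T.
Acta2: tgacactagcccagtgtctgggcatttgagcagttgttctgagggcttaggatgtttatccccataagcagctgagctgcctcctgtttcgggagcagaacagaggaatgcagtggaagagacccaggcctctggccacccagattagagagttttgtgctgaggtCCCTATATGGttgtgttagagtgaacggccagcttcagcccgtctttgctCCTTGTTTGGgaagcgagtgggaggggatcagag

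The elements begin 84 and 34 bases upstream of the annotated start. A full CArG box has CC, then 6 letters that are each A or T, then GG, and reads the same way on both strands. Among 32851 RefSeq windows of 300 bases around mouse start sites, 1.63% held a full CArG box, 8.50% held one with 1 such substitution and 0.822% held at least 2 matches of either kind. Of the 10 contractile genes 6 matched the promoter table (Acta2, Cnn1, Des, Lmod1, Mylk and Smtn), and of these Acta2 alone held a match. Sequence outside these windows was not searched, so a CArG box elsewhere in these genes would be missed. Actg2, Tagln, Myh11 and Myocd had no entry.

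For comparison, related actin genes and the calponin relative Cnn2 held a full CArG box in the same kind of window. They are shown with 10 bases on each side, the box in capitals, because their own levels in the arrays are set against those of Acta2 further on.
Actc1 (chr2:114052903-114052932, minus strand): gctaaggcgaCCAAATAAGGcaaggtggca
Acta1 (chr8:123894829-123894858, minus strand): tgcccgacacCCAAATATGGcttgggaagg
Actg1 (chr11:120348566-120348595, minus strand): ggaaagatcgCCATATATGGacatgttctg
Cnn2 (chr10:79988534-79988563, plus strand): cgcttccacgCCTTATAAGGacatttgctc

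Before the results, the arrays themselves differed. Pearson correlations over probe sets were 0.980 to 0.987 between null arrays, 0.979 to 0.990 between 1 null and 1 control array, and 0.994 to 0.995 between control arrays. In a principal component analysis, null replicate 3 lay nearer to the controls than to the other null arrays along the leading axis (46.6% of the variance), though outside the range of the controls. The pancreatic label was borne by the arrays: the progenitor gene Pdx1 had log2 levels of 9.97, 9.63 and 8.78 in null arrays, against 8.62, 8.24 and 8.27 in control arrays. A mean over 14 epithelial genes was 9.61, 9.47 and 8.65 in null arrays and 8.66, 8.57 and 8.56 in control arrays. Null replicates 1 and 2 thus carried more epithelial signal than the other 4 arrays. In the comparison of Hox6 null with control, 13 of 18193 genes passed limma's test after Benjamini-Hochberg adjustment (0.0715%), 12 lower (0.0660%) and 1 higher (0.00550%), and 1 of 45037 probe sets passed (0.00222%).

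None of the 10 contractile genes passed, over genes or over probe sets. The smallest adjusted p over all genes was 0.144, that of Acta2 (limma). At an unadjusted p under 0.05, 3 of the 10 genes were lower (Acta2, Actg2 and Mylk) and 0 were higher, while 8.24% of all genes were lower and 8.73% higher at that level. The log2 difference, Hox6 null minus control, lay below 0 for 7 of 10 genes, compared with 44.0% of all genes, and its median was -0.29 compared with 0.03 over all genes. In 3 of 10 genes every null array lay below every control array, compared with 11.7% of all genes. In 0 of 10 every null array lay above, compared with 12.2%. Taken singly, null replicates 1, 2 and 3 lay below all controls in 4, 5 and 5 of the 10 genes, compared with 31.3%, 32.8% and 31.8% of all genes. An exact permutation test of 3 against 3 arrays cannot give a two-sided p under 0.1, so adjusted p-values are those of limma.

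**Figure D1:**
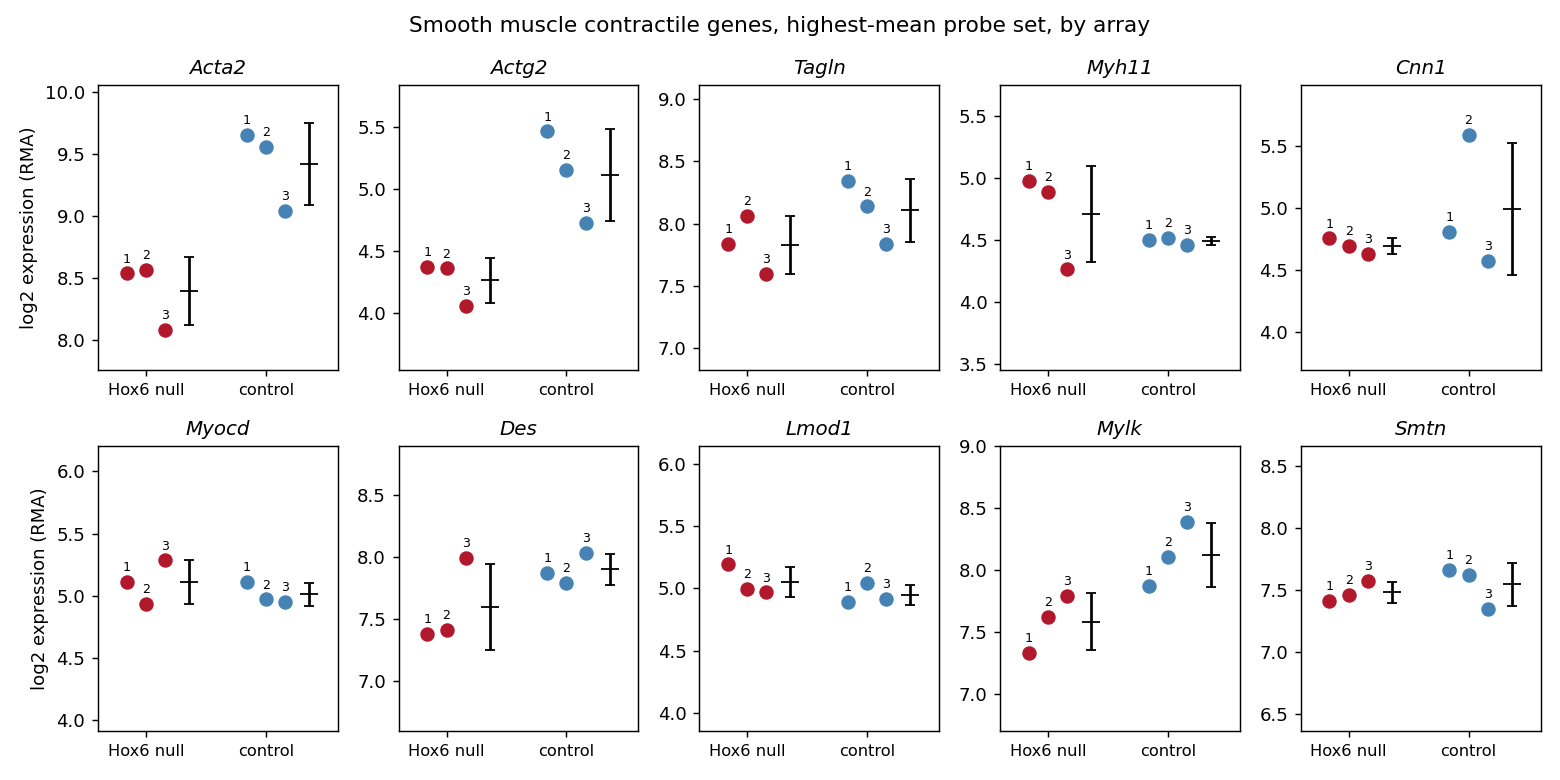
Log2 expression of the 10 contractile genes on each array (highest-mean probe set of each gene; points numbered by replicate, Hox6 null in red and control in blue; bars are mean and SD, n = 3 each; the panels have the same height in log2 units). Acta2, Actg2 and Mylk have all 3 null arrays below all 3 control arrays, and the other 7 genes overlap.

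The smooth muscle actins stood furthest apart. Acta2 encodes the alpha actin of vascular smooth muscle, and its brightest probe set read 8.53, 8.57 and 8.08 in Hox6 null arrays, against 9.65, 9.56 and 9.04 in control arrays. The groups did not overlap, with a gap of 0.47 between the highest null and the lowest control array. The means were 8.39 ± 0.27 in null and 9.42 ± 0.33 in control arrays (SD, n = 3 each), a difference of -1.02 ± 0.20 (SE), or 2.03-fold lower, with a 95% interval of -1.50 to -0.55. Over all probe sets the adjusted p was 0.179 (limma).

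Actg2 encodes the gamma actin typical of visceral smooth muscle. Its single probe set read 4.37, 4.36 and 4.06 in null arrays, against 5.46, 5.15 and 4.73 in control arrays. Again every null array lay below every control array, and null replicate 3 was the lowest of all 6. The difference was -0.85 ± 0.20 (SE), or 1.81-fold lower, with a 95% interval of -1.31 to -0.39 and an adjusted p of 0.205 (limma). These levels lay below the median of all probe sets, 5.98, a range in which RMA values are compressed. Whether the signal of Actg2 stood above background is not known.

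The probe sets of Acta2 did not behave alike. The other 2 read 3.64 to 4.37 and 2.54 to 2.82 in null arrays, against 3.88 to 4.24 and 2.53 to 2.87 in control arrays, and differed by -0.05 and -0.03. Both had a mean level under 4.22, the 25th percentile of all probe sets. With the mean over all 3 probe sets in place of the brightest, the difference of Acta2 was -0.37 and its adjusted p over genes 0.298 (limma). The name of the bright probe set ends in s_at, which in the array maker's scheme marks probe sets whose probes match several transcripts. How much of its signal came from other actin transcripts was not tested, and the signals of Acta2 and Actg2 may not be independent.

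The other actin genes did not share one direction. The cytoplasmic actins Actb and Actg1 differed by -0.03 ± 0.09 and -0.04 ± 0.10 (SE), and both overlapped between the groups. Acta1, the skeletal muscle actin, read 4.35, 4.53 and 4.23 in null arrays, against 4.10, 4.19 and 3.98 in control arrays, with every null array above every control array. Its difference was 0.28 ± 0.12 (SE) with an adjusted p of 0.289 over genes (limma). Actc1, the cardiac actin, read 5.11, 5.80 and 4.57 in null arrays and 4.89, 5.77 and 5.94 in control arrays, which overlap widely. Its difference was -0.37 ± 0.37 (SE), and like Acta2 and Actg2 it was lowest in null replicate 3. Of the 229 measured genes with a full CArG box in their window 39.7% had a difference below 0, compared with 44.3% of the 14368 measured genes with a window, and the medians were 0.05 and 0.03. For Srf itself the difference was -0.03 ± 0.15 (SE), with overlapping arrays.

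**Figure D2:**
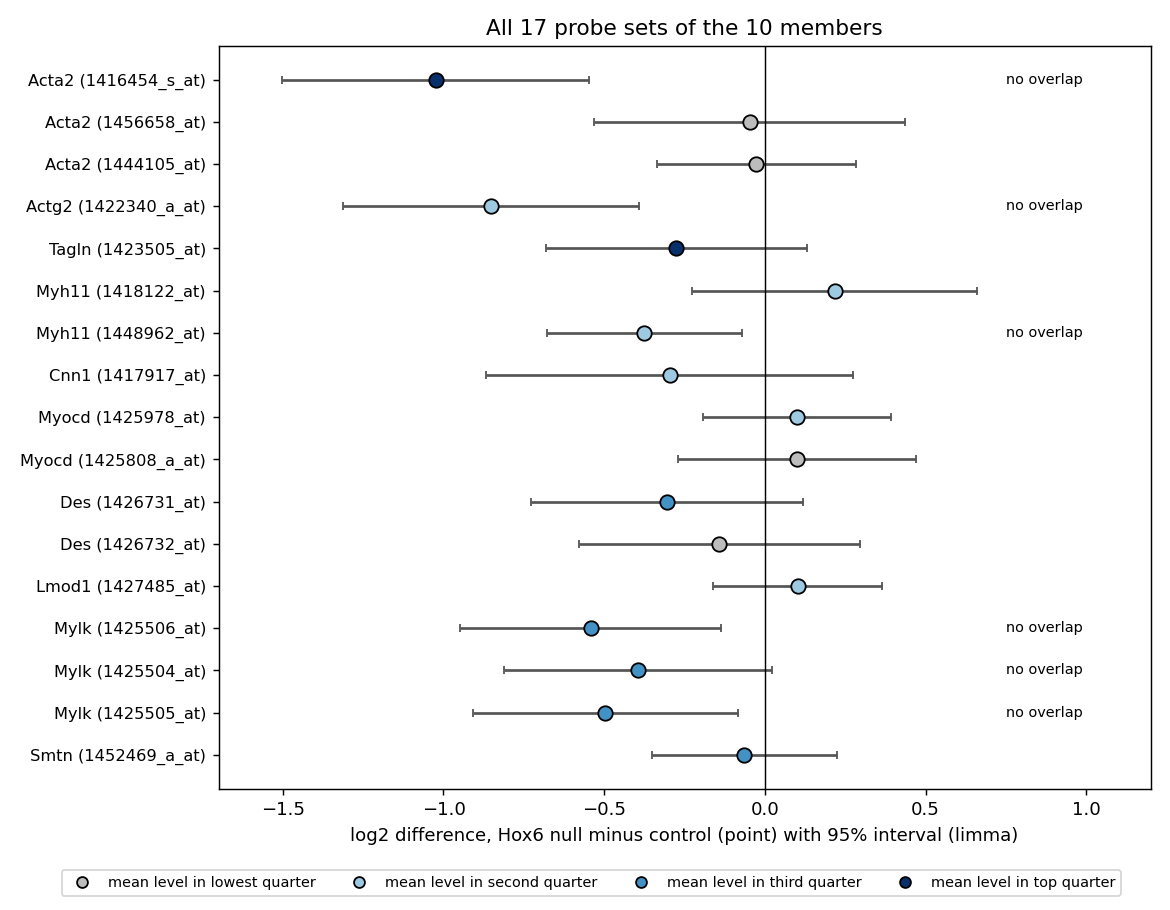
Log2 difference, Hox6 null minus control, of all 17 probe sets of the 10 genes with its 95% interval from limma (n = 3 each); shading gives the quartile of all probe sets in which the mean level lies, and "no overlap" marks probe sets whose null arrays all lay below the control arrays. Acta2, Actg2 and the 3 probe sets of Mylk lie to the left of 0, and the probe sets of Myocd and Lmod1 lie just to its right.

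Over the 17 probe sets, 13 had a difference below 0, compared with 42.7% of all probe sets, and 6 had every null array below every control array, compared with 9.89%. None had every null array above, compared with 12.1%. At an unadjusted p under 0.05, 5 were lower and 0 higher, compared with 6.79% lower and 8.17% higher of all probe sets. The 6 without overlap were 1 of 3 for Acta2, the single one of Actg2, 1 of 2 for Myh11 and 3 of 3 for Mylk, so several share a gene and are not separate evidence. The 7 probe sets at or above the median level, 3 of them of Mylk, had differences below 0 throughout, with a median of -0.40. By gene, the 5 members at that level had a median of -0.31. The share of all probe sets at that level with a difference below 0 was not counted. The 10 below the median level had a median of -0.04, and 4 of them had differences above 0.

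Mylk, the gene for myosin light chain kinase, was lower by all its probe sets. The brightest read 7.33, 7.62 and 7.79 in null arrays, against 7.87, 8.10 and 8.39 in control arrays. The highest null array and the lowest control array were 0.085 apart, so the groups separated narrowly. Its difference was -0.54 ± 0.17 (SE), with a 95% interval of -0.95 to -0.14 and an adjusted p of 0.259 (limma). The other probe sets differed by -0.40 ± 0.18 and -0.50 ± 0.18 (SE). By its brightest probe set, and unlike Acta2, Mylk was lowest in null replicate 1 and nearest to the controls in null replicate 3.

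Genes that act with this kinase were read from a list of 13 measured genes of myosin light chain and calcium control. None passed over all genes; 3 were lower and 0 higher at an unadjusted p under 0.05, compared with 8.24% and 8.73% of all genes, and the median difference was -0.08. The members with the smallest p were the soluble guanylate cyclase subunits Gucy1a1 (-0.73 ± 0.18, SE) and Gucy1b1 (-0.35 ± 0.14), which bring nitric oxide signals to smooth muscle, the calcium pump regulator Pln (-0.54 ± 0.14) and the phosphatase subunit Ppp1r12b (0.24 ± 0.11). Gucy1a1 read 8.48, 8.81 and 9.22 in null arrays, against 9.54, 9.50 and 9.65 in control arrays, so that null replicate 3 was again nearest to the controls. Rhoa and Rock1, which act against myosin phosphatase, differed by -0.09 and 0.04.

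Tagln encodes transgelin, an actin-binding protein that is among the early markers of smooth muscle. It read 7.84, 8.06 and 7.59 in null arrays, against 8.34, 8.14 and 7.83 in control arrays. Null replicate 2 lay between control replicates 2 and 3, and the difference of -0.28 ± 0.17 (SE) had a 95% interval of -0.68 to 0.13. Smtn, the gene for smoothelin, read 7.41, 7.46 and 7.58 in null arrays, against 7.67, 7.63 and 7.35 in control arrays. The difference was -0.06 with an interval of -0.35 to 0.22, and control replicate 3 was the lowest array.

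Myh11, Cnn1, Lmod1 and Myocd were dim, like Actg2, with mean levels below the median of all probe sets. By their brightest probe sets Smtn, Des and Mylk were not. Myh11, the smooth muscle myosin heavy chain, had 2 probe sets of opposite sign. One read 4.97, 4.89 and 4.26 in null arrays, against 4.50, 4.52 and 4.46 in control arrays, with null arrays on both sides of the controls and a difference of 0.22 ± 0.19 (SE). The other read 4.21, 3.99 and 3.97 in null arrays, against 4.62, 4.38 and 4.30 in control arrays, without overlap and with a difference of -0.38 ± 0.13. The direction of Myh11 therefore cannot be given.

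Cnn1 encodes calponin, which binds actin and slows the myosin cycle. It read 4.75, 4.69 and 4.63 in null arrays, against 4.81, 5.59 and 4.57 in control arrays. Control replicate 2 alone set the mean difference of -0.30 ± 0.24 (SE): without that array the difference was 0.0022. Lmod1, a leiomodin that starts new actin filaments, read 5.19, 4.99 and 4.97 in null arrays, against 4.89, 5.04 and 4.91 in control arrays, a difference of 0.10 with an interval of -0.16 to 0.37.

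Myocd encodes myocardin, the coactivator of Srf on these genes. Its brighter probe set read 5.11, 4.93 and 5.28 in null arrays, against 5.11, 4.97 and 4.95 in control arrays. The groups overlapped and both probe sets differed by 0.10, with 95% intervals of -0.19 to 0.39 and -0.27 to 0.47. All levels of Myocd, Myh11, Cnn1, Lmod1 and Actg2 were under the median of all probe sets. No detection calls were used, and it is not known whether the signal of these genes stood above background.

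Des encodes desmin, the intermediate filament of muscle cells, and it was among the brighter members. Its bright probe set read 7.38, 7.41 and 7.99 in null arrays, against 7.87, 7.79 and 8.04 in control arrays. Null replicates 1 and 2 were below all controls and null replicate 3 was among them. The difference was -0.31 ± 0.18 (SE), and that of the dim probe set was -0.14 ± 0.19.

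The 10 genes therefore did not follow one pattern over the null arrays. By the brightest probe set of each gene, Acta2, Actg2, Tagln and Myh11 were lowest in null replicate 3, whereas Des and Mylk were lowest in null replicate 1. Control replicate 3 was in turn the lowest control array for Acta2 (9.04), Actg2 (4.73), Tagln (7.83) and Myh11 (4.46). The dim probe set of Des was lowest in null replicate 3 (2.86), and another probe set of Mylk in null replicate 2 (5.75). Relative to the control mean, null replicates 1, 2 and 3 stood at -0.88, -0.85 and -1.34 for Acta2 and at -0.74, -0.75 and -1.06 for Actg2. For Mylk the same values were -0.79, -0.50 and -0.33, and for Des they were -0.52, -0.49 and 0.09. In 5 genes (Acta2, Actg2, Tagln, Cnn1 and Mylk) all 3 null arrays were below the control mean, in Lmod1 all 3 were above it, and in the other 4 genes they lay on both sides.

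**Figure D3:**
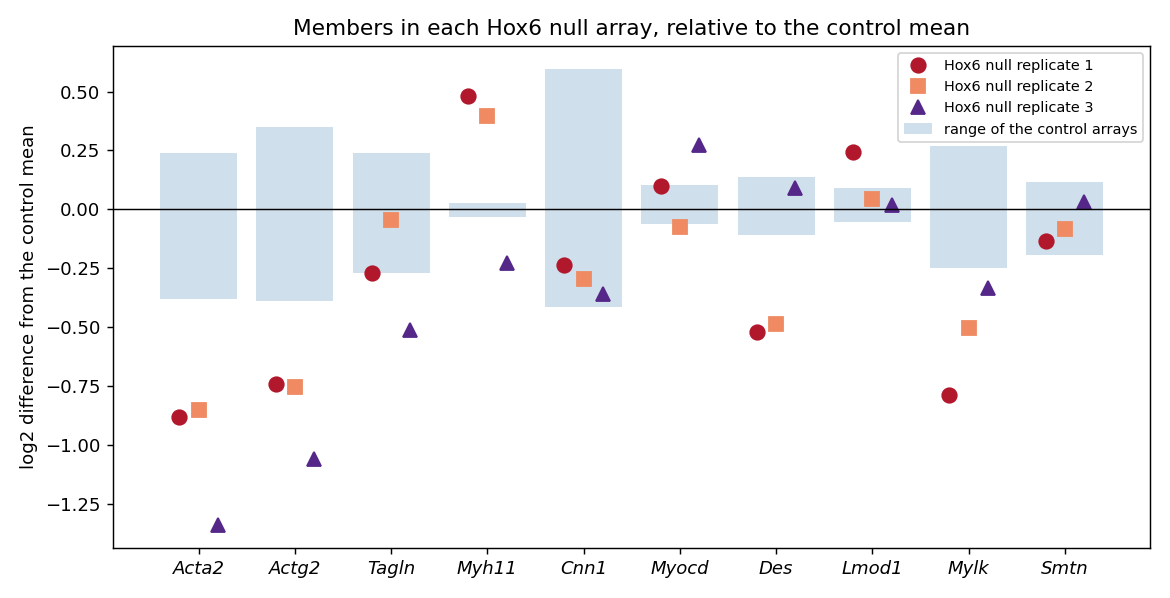
Log2 difference of each Hox6 null array from the mean of the 3 control arrays for the 10 contractile genes; blue bands give the range of the control arrays around their mean. Null replicate 3 is the lowest of the null arrays for Acta2, Actg2, Tagln, Myh11, Cnn1 and Lmod1 and the highest for Myocd, Des, Mylk and Smtn.

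The arrays that stand apart bore on these values in different ways. Without null replicates 1 and 2 together, a setting chosen after seeing the data that leaves 1 null array, the differences were -1.34 for Acta2, -1.06 for Actg2, -0.33 for Mylk and 0.09 for Des. Without null replicate 3, 3 of the 10 genes passed over all genes: Acta2 at -0.87 (adjusted p = 0.0439, limma) and Des at -0.50 (0.0446) were lower, and Myh11 at 0.44 (0.0432) was higher. In that fit 8.44% of all genes passed, 4.02% lower and 4.42% higher. With all other single arrays left out, none of the 10 passed.

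Actg2 had the profile most like that of Acta2, the only gene with which the others were compared. Over the 6 arrays, each gene centred on its own mean, the root mean square difference between them was 0.12 on the log2 scale. Of the 18192 other genes Actg2 was the closest to Acta2, and Tagln came at place 237, Cnn1 at 1101, Mylk at 2099 and Smtn at 3783. Myh11, at 12383, was the furthest of the members. The values were centred but not scaled, so a place depends on the size of the differences as well as on the order of the arrays. The members share all 6 arrays, so this likeness is a description. Whether the bright probe set of Acta2 also takes up Actg2 transcripts was not tested. Outside the 10 genes, those closest to Acta2 were Kcnk6, a potassium channel gene (0.17), Fcgr4, an Fc receptor gene of myeloid cells (0.19), Nell1, which encodes a secreted protein (0.20), Rhoj, a small GTPase gene of endothelial cells (0.20), and Scn7a, a sodium channel gene (0.21). Rhoj read 7.91, 8.15 and 7.82 in null arrays, against 8.97, 8.75 and 8.75 in control arrays.

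The wider cytoskeleton of smooth muscle was read from a list of 23 measured genes that holds none of the 10. None passed over all genes. In 15 the difference lay below 0, compared with 44.0% of all genes. At an unadjusted p under 0.05, 8 were lower and 0 higher, compared with 8.24% and 8.73% of all genes. In 9 every null array lay below every control array and in 1, Synpo2 (0.43 ± 0.20, SE), every null array lay above, compared with 11.7% and 12.2% of all genes. Synpo2, an actin-binding protein gene, is named for that count. The median difference was -0.18. Cnn2, a calponin found in many cell types, read 9.85, 9.91 and 10.11 in null arrays, against 10.39, 10.50 and 10.45 in control arrays, a difference of -0.49 ± 0.11 (SE). The tropomyosin genes Tpm4 and Tpm2 differed by -0.37 ± 0.11 and -0.29 ± 0.10, and the integrin gene Itga8 by -0.91 ± 0.30. Adjusted p-values of these 4 lay at 0.157 or above (limma).

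Regulators of the programme showed no common direction. Of 12 measured genes of the Srf, myocardin and Mef2 families and their partners, 7 were below 0 and 5 above, with a median of -0.013. Mef2a (-0.45 ± 0.12, SE) and Mef2c (-0.25 ± 0.10) had every null array below every control array. Mef2d (0.35 ± 0.13) and the myocardin relative Mrtfb (0.18 ± 0.10) had every null array above. These are 2 of 12 each way, compared with 11.7% lower and 12.2% higher of all genes. Of all genes 44.0% had a difference below 0. None passed over all genes, with adjusted p from 0.186 (limma). The 6 non-muscle actin and myosin genes had a median of -0.06, with Myh10 at -0.18, Myl12a at -0.17, Myl12b at -0.07 and Myh9 at 0.16.

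**Figure D4:**
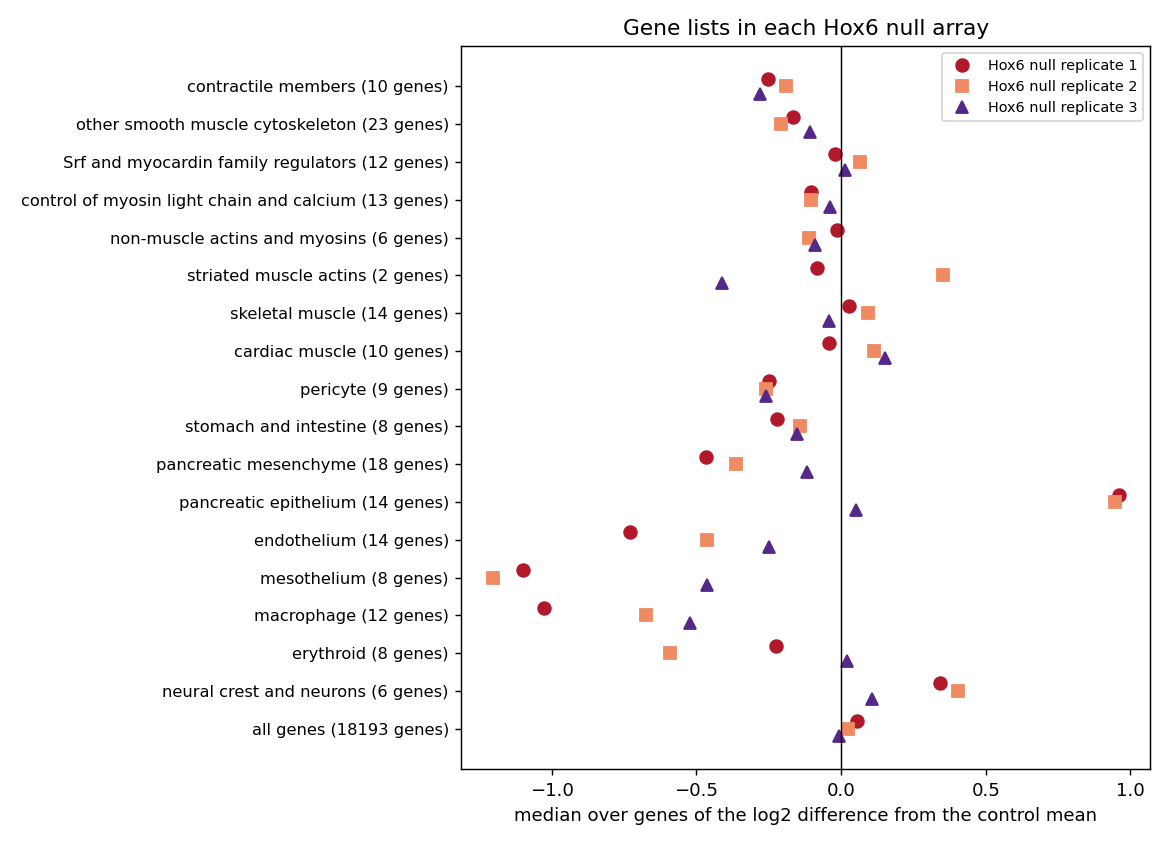
Median over the genes of each list of the log2 difference from the control mean, shown separately for the 3 Hox6 null arrays, with all 18193 genes at the bottom. Lists of mesenchyme, endothelium, mesothelium and macrophages lie to the left and epithelium to the right. In each of these null replicate 3 is nearest to 0. Pericyte medians are nearly alike in null replicates 1, 2 and 3 (-0.25, -0.26 and -0.26). Those of the contractile genes are -0.25, -0.19 and -0.28.

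Markers of cells that could contribute these transcripts were read in the same way. Over all genes, 44.0% had a difference below 0 and 0.0715% passed. Every null array lay below every control array in 11.7%, and 8.73% were higher at an unadjusted p under 0.05. Of 9 pericyte genes 7 were below 0, with a median of -0.36, and their summed level on the linear scale was 4943 to 5375 in null and 5610 to 6107 in control arrays. Abcc9 (-0.67 ± 0.18, SE) and Rgs5 (-0.41 ± 0.12), both genes of pericytes, and Cspg4 (-0.36 ± 0.13) and Mcam (-0.38 ± 0.15) had every null array below every control array. In all, 5 of the 9 did so. Vtn (0.72 ± 0.29) and Anpep (0.50 ± 0.25), named because they lay on the other side of 0, overlapped between the groups, and Vtn was the 1 pericyte gene higher at an unadjusted p under 0.05. None of the 9 passed over all genes. Of 18 mesenchyme genes 16 were below 0, with a median of -0.37, none called, and a summed level of 19612 to 23555 in null and 25465 to 26369 in control arrays. Of 14 endothelial genes 14 were below 0, with a median of -0.50 and a summed level of 4132 to 5103 in null and 6112 to 6507 in control arrays. Of these, Tek (-1.13 ± 0.12, SE), an angiopoietin receptor gene, and Clec14a (-0.92 ± 0.10) fell, each with an adjusted p of 0.0417 over all genes (limma). The part of these cell types in the contractile values was not tested. The summed level of the 10 contractile genes was 1247 to 1328 in null and 1648 to 1962 in control arrays.

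The order of the arrays differed between lists and from that of the actins. In the pericyte list the mean was 8.70, 8.81 and 8.74 in null arrays, against 8.95, 8.84 and 8.93 in control arrays. There null replicate 2 was nearest to the controls. The mean of the mesenchyme list was 8.81, 8.87 and 9.16 in null arrays, against 9.36, 9.42 and 9.42 in control arrays, with null replicate 3 nearest to the controls. Acta2 and Actg2 were lowest in null replicate 3. Among the control arrays both were lowest in control replicate 3 (9.04 and 4.73). Mesothelium, with 7 of 8 genes below 0, macrophages, with 12 of 12, and erythroid cells, with 7 of 8, had medians of -1.14, -0.67 and -0.33, and their summed levels were 865 to 1435, 2486 to 3400 and 14450 to 18961 in null arrays and 1762 to 2109, 4646 to 4898 and 16681 to 17620 in control arrays. Over all genes 2 macrophage genes (Ctss and Adgre1), 1 erythroid gene (Hemgn) and 0 mesothelial genes passed, all lower. Of all genes 0.0715% passed and 44.0% had a difference below 0. Epithelium, with 13 of 14 genes above 0, had a median of 0.61 and summed levels of 7631 to 14328 in null and 7173 to 7762 in control arrays. Neural crest and neurons, with 5 of 6 above 0, had a median of 0.36 and summed levels of 546 to 809 in null and 481 to 657 in control arrays.

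No gene of the skeletal or cardiac muscle lists passed over all genes. For comparison, 44.0% of all genes had a difference below 0. Of 14 skeletal muscle genes 7 were below 0, with a median of 0.03 and a summed level of 468 to 511 in null and 439 to 601 in control arrays. Of 10 cardiac muscle genes 3 were below 0, with a median of 0.12 and a summed level of 308 to 449 in null and 387 to 439 in control arrays. The skeletal regulator Myog read 4.20 to 4.95 in null and 4.28 to 4.44 in control arrays, and the cardiac myosin gene Myh6 read 3.49 to 4.34 in null and 3.69 to 3.92 in control arrays. Both were chosen for mention after their values were seen.

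Stomach and intestine genes had no common direction. A difference below 0 was found in 44.0% of all genes. Of 8 genes 4 were below 0, with a median of -0.021, and the summed level was 1096 to 2166 in null and 1239 to 1619 in control arrays. Kit, the receptor gene that marks the pacemaker cells of gut muscle, read 6.11, 6.07 and 6.26 in null arrays, against 6.42, 6.55 and 6.59 in control arrays. Its difference was -0.37 ± 0.10 (SE), with an adjusted p of 0.189 (limma). Named after their values were seen, Sox2, a transcription factor gene of stomach epithelium, read 2.57, 2.70 and 5.40 in null arrays, against 3.01, 3.12 and 2.54 in control arrays. Barx1, a transcription factor gene of stomach mesenchyme, read 9.31, 9.65 and 10.70 in null arrays, against 9.70, 9.52 and 10.02 in control arrays. Null replicate 3 was the highest array for both. It was the lowest array for Nkx2-3 (7.17) and Cdx1 (3.23), gut transcription factor genes of the same list, and the median of the list in that array was -0.15 relative to the control mean. The summed level of the list was highest in null replicate 3 (2166), and the list mixes stomach and intestine genes. The part of stomach tissue in the contractile values was not tested.

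**Figure D5:**
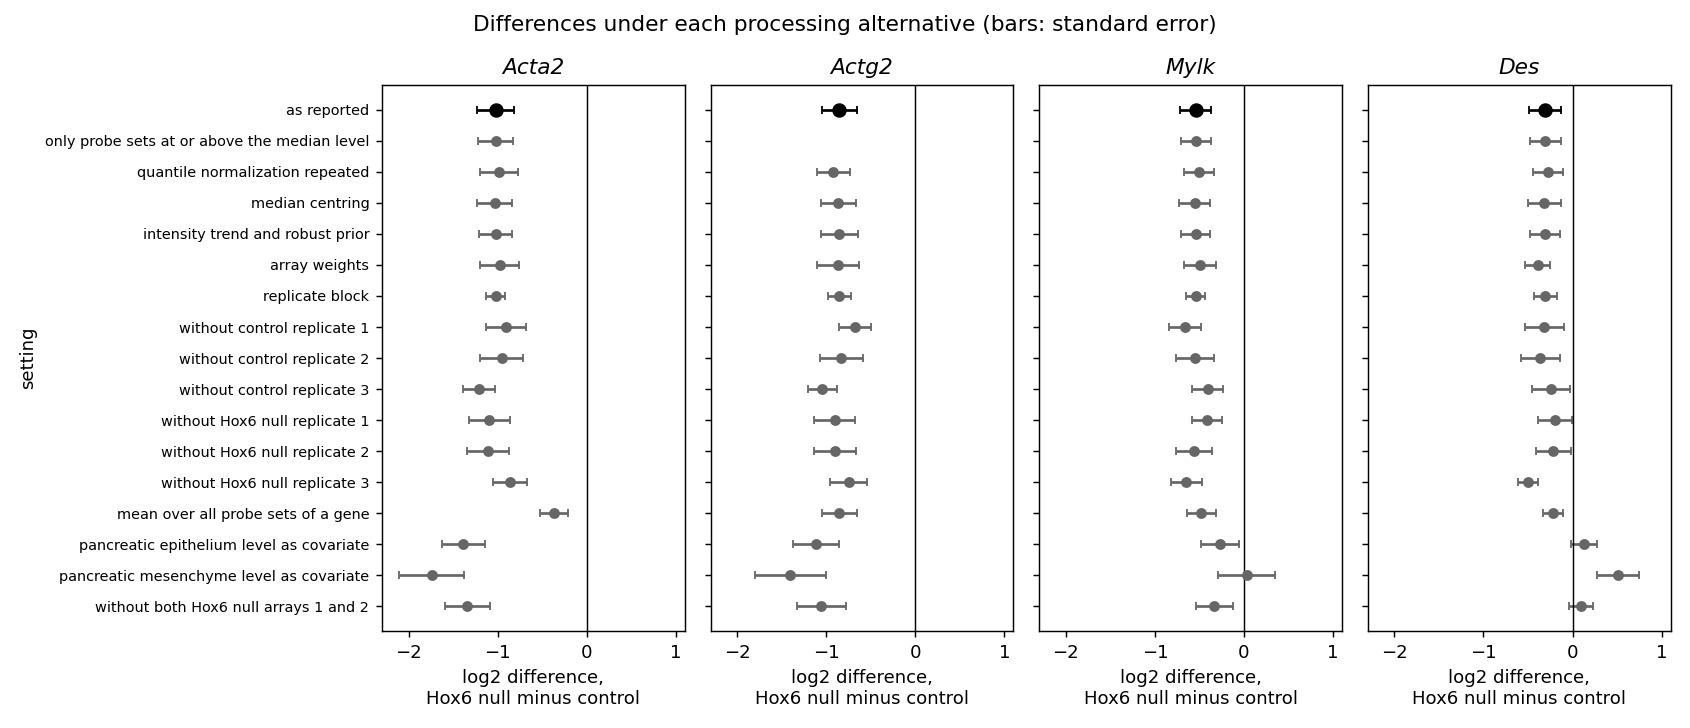
Log2 difference, Hox6 null minus control, of Acta2, Actg2, Mylk and Des as reported and under each alternative setting (bars are standard errors; Actg2 lies below the level filter and has no value there). Acta2 and Actg2 stay below 0 in every setting run, whereas Mylk and Des lie above 0 with the mesenchyme level as a covariate.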

How the data were processed

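The deposited values are log2 expression per probe set, 1 array per sample. RMA, affy and limma are named, without versions, in the submitters' processing notes; RMA normalizes the arrays together and compresses values near background. Array medians lay between 5.97 and 6.02, and the number of arrays limits precision. Of 45101 probe sets, 64 array controls were left out; 34945 had 1 gene symbol, 932 several and 9160 none listed. Each of 18193 genes was represented by its probe set with the highest mean.

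Hox6 null was compared with control by limma 3.58.1 in R 4.3.3 (lmFit, eBayes), genotype as the only term, two-sided, with Benjamini-Hochberg adjustment over all probe sets or all genes and a threshold of 0.05. Values of the 10 genes come from the probe set fit, those of lists and alternatives from the gene fit; errors are moderated. The test was also run on simulated data with independent noise for each gene and array. That noise lacks the differences between arrays described above, so no conclusion about the calls is drawn from it. Members and lists were chosen with earlier results of these data known, so lists are described by counts and medians. The rule for names took up to 4 genes with the smallest p from each list, of which not all are described, and the 5 genes closest to Acta2. Outside it, after their values were seen, Actb, Actg1, Srf, Rhoa, Rock1, Sox2, Barx1, Nkx2-3, Cdx1, Synpo2, Vtn, Anpep, Myog and Myh6 were named. The labels do not say whether replicate numbers pair the arrays. Deviations from group means correlated weakly between arrays of the same number, at 0.16, -0.04 (-0.0376) and 0.10, which does not exclude pairing. Promoters and symbols are from RefSeq (GRCm38.p6); no coordinates of probes are given.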

Additional observations from a re-analysis of the deposited data

How the results depend on the processing

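In all 16 alternatives, 13 planned and 3 chosen after seeing the data, the median difference of the 10 contractile genes stayed below 0. It was -0.22 (-0.219) with array weights, -0.22 (-0.221) with the mesenchyme level as a covariate, and -0.32 to -0.14 with single arrays left out. The number of genes called, 13, became 37 with the level filter, 1 with repeated quantile normalization, 8 with median centring, 74 with an intensity trend and robust prior, 155 with array weights, 0 with the replicate block and 0 to 1536 with single arrays left out. Without null replicates 1 and 2 it was 70. Probe sets called, 1, became 16, 0, 63 and 41 with filter, repeated quantile normalization, trend and weights, 0 to 1902 with single arrays left out, 20 and 2 with the epithelium and mesenchyme covariates and 23 without null replicates 1 and 2. The replicate block left the 10 differences as they were and called none of them. It lowered the standard error of Acta2 from 0.20 to 0.11, of Actg2 from 0.20 to 0.13 and of Mylk from 0.17 to 0.11. Standard errors also fell for Tagln, Myh11, Cnn1 and Des, and rose for Myocd, Lmod1 and Smtn. Directions turned for Cnn1 without control replicate 2 (0.0022; range over single arrays left out -0.50 to 0.0022) and for Myh11 with the mean over probe sets (-0.079). With the epithelium covariate they turned for Myh11 (-0.27), Des (0.13) and Smtn (0.025), and with the mesenchyme covariate for Myh11 (-0.70), Des (0.51), Lmod1 (-0.086), Mylk (0.031) and Smtn (0.089). Without null replicates 1 and 2 they turned for Myh11 (-0.23), Des (0.093) and Smtn (0.029). The mesenchyme level did not overlap between the groups (8.81 to 9.16 in null and 9.36 to 9.42 in control arrays), so that fit separates genotype and mesenchyme poorly. Acta2 ranged from -1.74 to -0.37 and Actg2 from -1.40 to -0.68. The cause of these shifts was not tested, and genes under the median level, 5 of the 10, have no value with the level filter.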
